A study of Peromyscus maniculatus and Peromyscus polionotus and Peromyscus maniculatus x Peromyscus polionotus with 18 samples.

Results

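The ratio of the 2 parental alleles of each gene was compared between brains of F1 hybrid deer mice killed at the end of a burrowing trial and brains of F1 hybrids killed at the end of a control trial. The hybrids were crosses of *Peromyscus maniculatus* (BW) with *P. polionotus* (PO). All genes with a mean of at least 100 counts per animal, summed over both alleles, were included, which gave 10838 of the 11928 genes with allele counts. The rule used no allele ratio and no trial difference. There were 3 animals in the burrowing group and 3 in the control group, 6 of the 18 libraries of the study. The other 12 libraries came from brains of the parental species, 3 each for *P. polionotus* after burrowing, *P. polionotus* after control, *P. maniculatus* after burrowing and *P. maniculatus* after control. All animals were males of about 50 to 80 days, all had been through 2 earlier trials in sand-filled enclosures, and all were assigned at random to a cohort. The labels do not say what the control trial consisted of or which species was the mother of the hybrids.

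In an F1 hybrid both parental alleles of a gene sit in the same nucleus and meet the same hormones, activity and transcription factors. A difference in level between the alleles therefore reflects sequence or chromatin carried in cis, whereas a factor that acts in trans reaches both. An allele ratio that differs between conditions is the usual readout of a cis difference that depends on the state of the tissue. That reading requires the animals of both conditions to carry the same parental alleles. *P. polionotus* is known for its long, complex burrows and *P. maniculatus* for short, simple ones, and the study title names regulatory changes in cis in locomotor genes as its subject.

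The 3 burrowing animals had 26264699, 28994982 and 22510205 allele-assigned counts, and the 3 control animals had 11415175, 12595542 and 53906964. The polionotus allele held 52.6% to 53.1% of the counts of an animal. The 38 included genes on the X had a median polionotus share of 15.2%, 9.68% and 14.8% in burrowing animals, against 15.6%, 16.0% and 15.5% in control animals. Male F1 mice carry only the mother's X. Of the 38 genes, 31 in burrowing animal 2 and 32 in each of the other animals were below 50%, so 6 or 7 genes per animal were at 50% or above. Each X gene had reads in both allele columns. In a male some of these reads were given to an allele the animal lacks, unless the gene was wrongly placed on the X. How far such misassignment affects the shares of other genes was not tested. Neuronal, astrocytic, oligodendrocytic, precursor, microglial, vascular and ependymal markers were all detected, and the summed level of each set overlapped between trials. Neuronal markers summed to 2899 to 3406 CPM (counts scaled to a common library total) in burrowing animals, against 2596 to 3370 in control animals. Blood, pituitary and retina markers had no gene in the count table.

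Animals of the same trial were about as alike in their allele ratios as animals of different trials, with median correlations of 0.68 and 0.69. Across the 10838 genes the Spearman correlation of the log2 allele ratio was 0.61 to 0.68 between burrowing animals and 0.67 to 0.73 between control animals. It was 0.59 to 0.84 over the 9 pairs that crossed the trials. Burrowing animal 3 and control animal 3 were most alike, at 0.84, and burrowing animal 1 and control animal 1 followed at 0.79. Burrowing animal 2 stood apart, with no correlation above 0.68 to any animal. These values describe genes that share libraries and are not a test. The median log2 difference in ratio between trials was 0.01 over all genes, and the median size of the difference was 0.11.

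**Figure D1:**
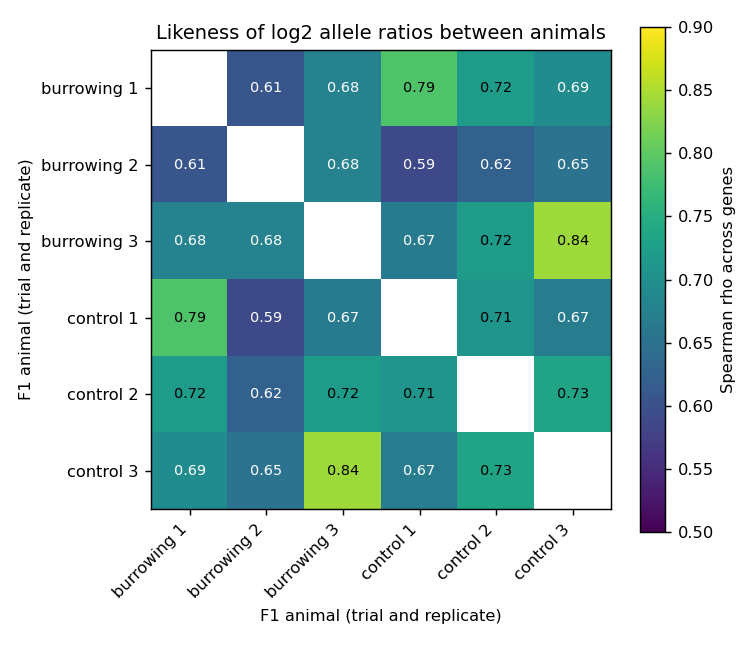
Spearman correlation of the log2 polionotus to maniculatus allele ratio across 10838 genes, for each pair of the 6 F1 animals (rows and columns). The highest value, 0.84, joins a burrowing and a control animal, and the values within a trial run from 0.61 to 0.73.

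Against this background, 27 genes changed their allele ratio between trials, and 26 of them shifted towards the polionotus allele in burrowing animals. The shifted genes included the nuclear anchoring proteins Akap8l and Akap8 and the membrane protein Tspan13. The single gene that shifted towards the maniculatus allele was LOC102903680, which the RefSeq table names Pgcka1. Genes were called at an adjusted p below 0.05 by edgeR's quasi-likelihood test of the allele by trial term, with each animal as a block and Benjamini-Hochberg adjustment over all 11928 genes. The 27 genes were 0.249% of the included genes, or 0.226% of all genes tested. Calls towards the polionotus allele made up 0.24% of included genes and calls towards the maniculatus allele 0.00923%. At an unadjusted p below 0.05 there were 234 included genes, or 2.16%. The number and the balance of calls depended on single animals. Without control animal 3 the number called was 73, of which 43 shifted towards the maniculatus allele. Without burrowing animal 1 it was 60, of which 21 shifted that way, and without burrowing animal 3 it was 43, of which 7 did. Without control animal 1 it was 27, of which 8 did, and without burrowing animal 2 it was 22, of which 4 did. Without control animal 2 it was 10, all towards the polionotus allele. Akap8l, Dcaf5, Dpp9, Fem1a, LOC102916559, LOC102922681, Syt16, Tspan13 and Ubxn6 were among 10 genes called whichever animal was left out. All 27 kept their direction, which the lack of overlap between their trials largely fixed in advance.

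The animal IDs come in 2 forms, a plain number in burrowing animals 1 and 2 and control animals 1 and 2, and a number after F1 in burrowing animal 3 and control animal 3. The labels do not say what the forms mean. All 27 genes differed in the same direction within each form. This had to follow, because their ratios did not overlap between trials, so it is not a separate check. With a term for the form in the fit 19 genes were called, 16 of the 27 among them, and the largest edgeR adjusted p of the 27 was 0.137. Akap8l had a log2 difference of 3.45 among the 4 animals of the first form and 3.34 between the 2 animals of the second. Tspan13 had 1.73 and 1.79, in the same order.

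Replicates of the called genes lay close together, which the test itself favours. Their ratios did not overlap between trials in any of the 27, whereas 860 included genes (7.94%) did not overlap, 491 (4.53%) shifted towards the polionotus and 369 (3.4%) towards the maniculatus allele. The polionotus share, which is the part of the counts of a gene that was given to the polionotus allele (in %), differed between trials by 12.4 to 50.8 percentage points, with a median of 31.5. The SD of the share between animals had a median of 1.19 points in burrowing animals and 1.77 points in control animals, against 2.79 and 2.52 points over all included genes. A difference of more than 1 on the log2 scale was found in 490 included genes (4.52%), of which 465 were not called, and in 367 of these the trials overlapped. The widest 95% Wilson interval of a single animal's share spanned 12.6 points to either side, in LOC102909570, whose trial means were 83.9% in burrowing animals and 47.9% in control animals. Intervals cover counting error only, since reads without molecular identifiers are not independent molecules.

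**Figure D2:**
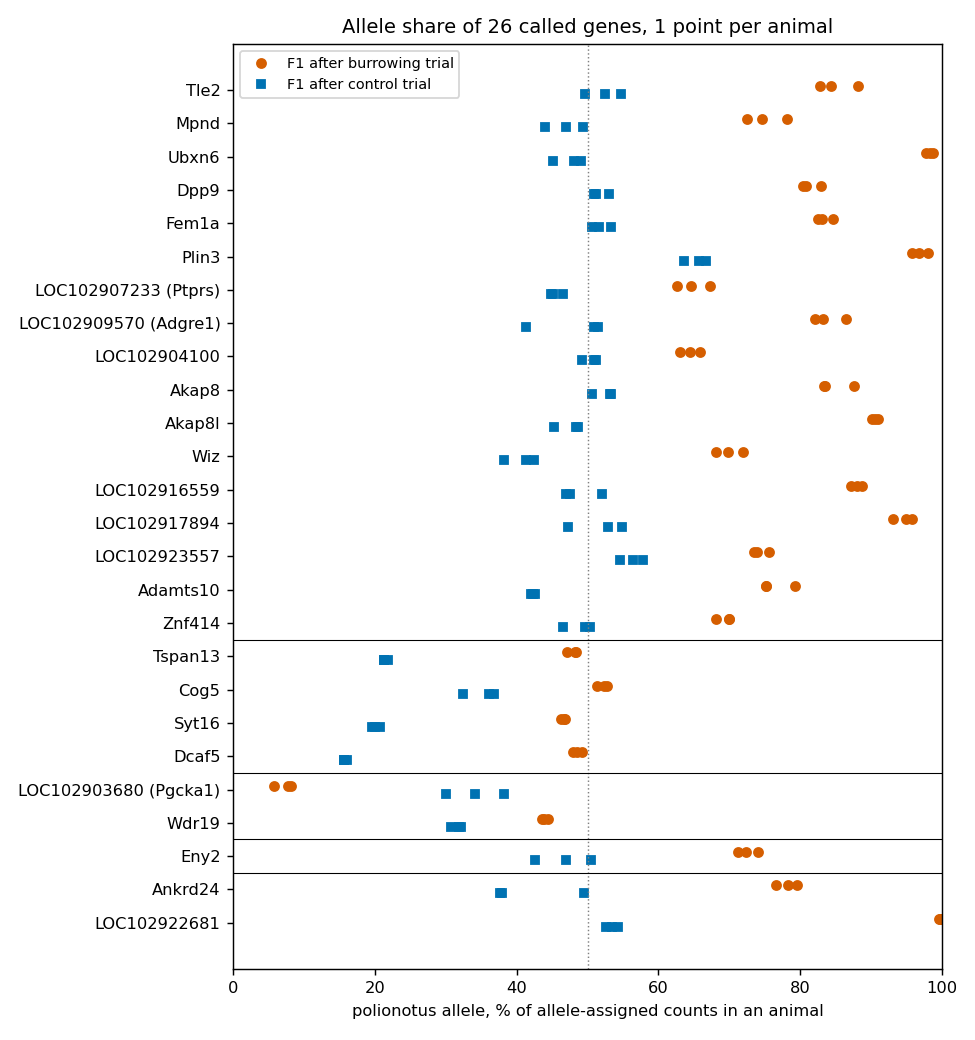
Polionotus share of allele-assigned counts (%, x axis) for 26 called genes (rows), with 1 point per animal. Orange circles are burrowing animals and blue squares are control animals, and lines separate the chromosomes of the RefSeq gene table. In the upper block the squares sit near 50% and the circles to their right, whereas for Tspan13, Cog5, Syt16 and Dcaf5 the circles sit near 50% and the squares to their left.

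The largest group of called genes lay on 1 chromosome. Of 25 called genes placed by the RefSeq gene table, 18 shared the chromosome of Akap8l, and all 18 shifted towards the polionotus allele. In 17 of these the control mean lay between 40% and 60%, close to equal counts of the alleles, and in none did the burrowing mean lie there. Over all included genes the control mean lay in that range in 65.4% and the burrowing mean in 65.1%. Among the 18 genes control means ran from 40.7% to 65.4%, and burrowing means ran from 64.5% to 98.2%. The chromosome of Tspan13 showed the other arrangement in its 4 called genes: burrowing means were 46.5% to 52.1%, against control means of 15.8% to 35.1%. Of the rest, 2 genes shared the chromosome of Wdr19, 1 was Eny2 and 2 were not placed.

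Several called genes act in the nucleus. Akap8l, a nuclear relative of the protein kinase A anchor Akap8 that binds chromatin and RNA, had polionotus shares of 90.1%, 91.0% and 90.6% in burrowing animals, against 45.2%, 48.4% and 48.7% in control animals. Its log2 difference was 3.41 (SE 0.09, edgeR adjusted p = 0.000563). Akap8 itself, the next gene in the RefSeq order, had shares of 83.5%, 87.6% and 83.4% in burrowing animals, against 53.2%, 53.3% and 50.6% in control animals. The trials did not overlap for this gene (log2 difference 2.36, SE 0.16, edgeR adjusted p = 0.0128). On the other side of Akap8l lies Wiz, a zinc finger partner of the G9a and GLP histone methyltransferases. It had shares of 69.8%, 71.98% and 68.1% in burrowing animals, against 42.5%, 41.3% and 38.2% in control animals. These 3 neighbours moved the same way.

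Other regulators of transcription changed in the same direction. Tle2, a Groucho-family corepressor, had shares of 88.1%, 84.3% and 82.9% in burrowing animals, against 52.5%, 49.7% and 54.8% in control animals (log2 difference 2.403, SE 0.21). Eny2, a subunit of the SAGA deubiquitinase module and of the TREX-2 mRNA export complex, had shares of 71.2%, 74.1% and 72.4% in burrowing animals, against 47.0%, 42.5% and 50.4% in control animals (log2 difference 1.59, SE 0.14). The zinc finger gene Znf414 averaged 69.3% ± 1.05 in burrowing animals and 48.9% ± 1.99 in control animals (SD, n = 3 each). All 3 passed the test, at edgeR adjusted p of 0.0343 for Tle2, 0.0351 for Eny2 and 0.0243 for Znf414. Each was called with 1 of the 6 animals left out and not with any of the other 5.

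Called genes also act in protein turnover. Of those named here, Ubxn6, Fem1a and Dpp9 lie close together on the Akap8l chromosome. Ubxn6, a cofactor of the p97 segregase, had shares of 97.7%, 98.8% and 98.3% in burrowing animals, against 49.1%, 45.2% and 48.1% in control animals. In the 3 burrowing animals 22, 3 and 5 reads came from the maniculatus allele, against 113, 340 and 699 in the 3 control animals. The log2 difference was 5.86 (SE 0.22, edgeR adjusted p = 0.00129). Fem1a, a substrate receptor of CUL2 ubiquitin ligases, averaged 83.4% ± 1.1 in burrowing animals and 51.8% ± 1.34 in control animals (SD, n = 3 each). Dpp9, a cytosolic dipeptidyl peptidase that cuts after proline, averaged 81.4% ± 1.36 in burrowing animals and 51.7% ± 1.18 in control animals (SD, n = 3 each). Dcaf5, a substrate receptor of CUL4 ligases, lies on the Tspan13 chromosome and had shares of 49.3%, 47.9% and 48.5% in burrowing animals, against 15.6%, 15.7% and 16.1% in control animals (log2 difference 2.33, SE 0.07). For Dcaf5 the counts were split nearly equally between the alleles in burrowing animals and were mainly given to the maniculatus allele in control animals.

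Membrane genes were called on both chromosomes. Tspan13, a tetraspanin, had shares of 47.2%, 48.4% and 48.3% in burrowing animals, against 21.9%, 21.2% and 21.3% in control animals (log2 difference 1.75, SE 0.05, edgeR adjusted p = 0.000563). Its shares varied by under 1 point (SD) within either trial. Syt16, a member of the synaptotagmin family, had shares of 46.8%, 46.6% and 46.2% in burrowing animals, against 20%, 20.7% and 19.5% in control animals (log2 difference 1.79, SE 0.07). LOC102907233, named Ptprs in the RefSeq table, encodes a receptor tyrosine phosphatase of axons and synapses. It averaged 64.9% ± 2.37 in burrowing animals and 45.5% ± 0.879 in control animals (SD, n = 3 each). LOC102909570, named Adgre1 and known in mice as the macrophage marker F4/80, averaged 83.9% ± 2.24 in burrowing animals and 47.9% ± 5.72 in control animals (SD, n = 3 each). It had the fewest counts of the called genes, 144.5 per animal, and was not called with any animal left out.

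The remaining named genes serve lipid storage, matrix, Golgi and cilia. Plin3, a coat protein of lipid droplets, had shares of 98.1%, 95.7% and 96.8% in burrowing animals, against 65.8%, 66.7% and 63.6% in control animals (log2 difference 4.15, SE 0.30). It was the only called gene of its chromosome whose control mean lay outside 40% to 60%. Adamts10, a secreted metalloprotease of fibrillin microfibrils, had shares of 79.3%, 75.2% and 75.2% in burrowing animals, against 42.3%, 42.7% and 42.0% in control animals (log2 difference 2.16, SE 0.12). Cog5, a subunit of a Golgi tethering complex, averaged 52.1% ± 0.69 in burrowing animals and 35.1% ± 2.38 in control animals (SD, n = 3 each). It was not called with any animal left out. Wdr19, a subunit of the intraflagellar transport A complex of cilia, showed the smallest log2 difference, 0.77 (SE 0.05, edgeR adjusted p = 0.0149), with shares of 43.8%, 44.4% and 43.6% in burrowing animals, against 31.8%, 32.1% and 30.7% in control animals. Ankrd24, which was not placed, averaged 78.2% ± 1.47 in burrowing animals and 41.7% ± 6.8 in control animals (SD, n = 3 each). With an animal left out it was called in 1 of 6 fits, at edgeR adjusted p of up to 0.250.

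Mpnd, whose protein carries an MPN domain, averaged 75.1% ± 2.86 in burrowing animals and 46.8% ± 2.63 in control animals (SD, n = 3 each), and was called in 1 of 6 fits with an animal left out. Of the genes without a symbol, LOC102922681 had the largest difference of all, 8.31 (SE 0.26, edgeR adjusted p = 0.000594). Its maniculatus allele had 5, 4 and 2 reads in burrowing animals, against 577, 566 and 2047 in control animals. Its polionotus allele had 1248, 1607 and 1290 reads in burrowing animals, against 662, 628 and 2437 in control animals, so the gene was well covered in all 6. LOC102917894, LOC102916559, LOC102923557 and LOC102904100 had log2 differences of 4.06, 2.94, 1.17 and 0.84. LOC102903680 (Pgcka1) ran the other way, with shares of 7.7%, 8.1% and 5.8% in burrowing animals, against 34.1%, 30.1% and 38.2% in control animals (log2 difference -2.74, SE 0.22, edgeR adjusted p = 0.0243). The highest burrowing share was below the lowest control share. It was called with 1 of the 6 animals left out and not with any of the other 5, at adjusted p of up to 0.108.

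The level of each allele showed how these ratios were made up. On the Akap8l chromosome the maniculatus allele was lower in all burrowing animals than in any control animal in 18 of 18 called genes, and the polionotus allele was higher without overlap in 6. The median log2 change of mean CPM was -1.78 for the maniculatus allele and 0.34 for the polionotus allele. Over all included genes the maniculatus allele was lower without overlap in 2.37% and the polionotus allele higher in 2.07%, and both medians were 0.02. Called genes on every chromosome were selected by their ratio, which favours such separation in either allele, so these counts are not a separate test. Akap8l had 10.4, 8.17 and 9.20 CPM from the maniculatus allele in burrowing animals, against 66.4, 53.0 and 52.0 in control animals. From the polionotus allele it had 94.5, 83.0 and 88.3 in burrowing animals, against 54.8, 49.6 and 49.3 in control animals. The 2 alleles moved in opposite directions, and their sum was 97.8 ± 6.86 in burrowing animals and 108 ± 11.2 in control animals (SD, n = 3 each). Akap8 had the same arrangement: the maniculatus allele averaged 18.3 ± 2.92 in burrowing animals and 58.3 ± 0.836 in control animals, and the polionotus allele averaged 103 ± 5.77 in burrowing animals and 64.1 ± 3.08 in control animals (SD, n = 3 each).

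On the Tspan13 chromosome the polionotus allele was higher without overlap in 4 of 4 called genes, and the maniculatus allele was lower in 1. The median log2 change there was 1.60 for the polionotus allele and -0.25 for the maniculatus allele. Syt16 had 27.0, 31.9 and 27.9 CPM from the polionotus allele in burrowing animals, against 9.02, 7.70 and 8.87 in control animals. Its maniculatus allele averaged 33.2 ± 2.94 in burrowing animals and 34.0 ± 3.91 in control animals (SD, n = 3 each), a difference smaller than the spread. Tspan13 had 237, 328 and 297 CPM from the polionotus allele in burrowing animals, against 130, 98.5 and 85.0 in control animals. LOC102903680 differed mainly in the same allele and in the other direction, with 0.761, 0.483 and 0.489 in burrowing animals, against 3.77, 3.41 and 5.25 in control animals.

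**Figure D3:**
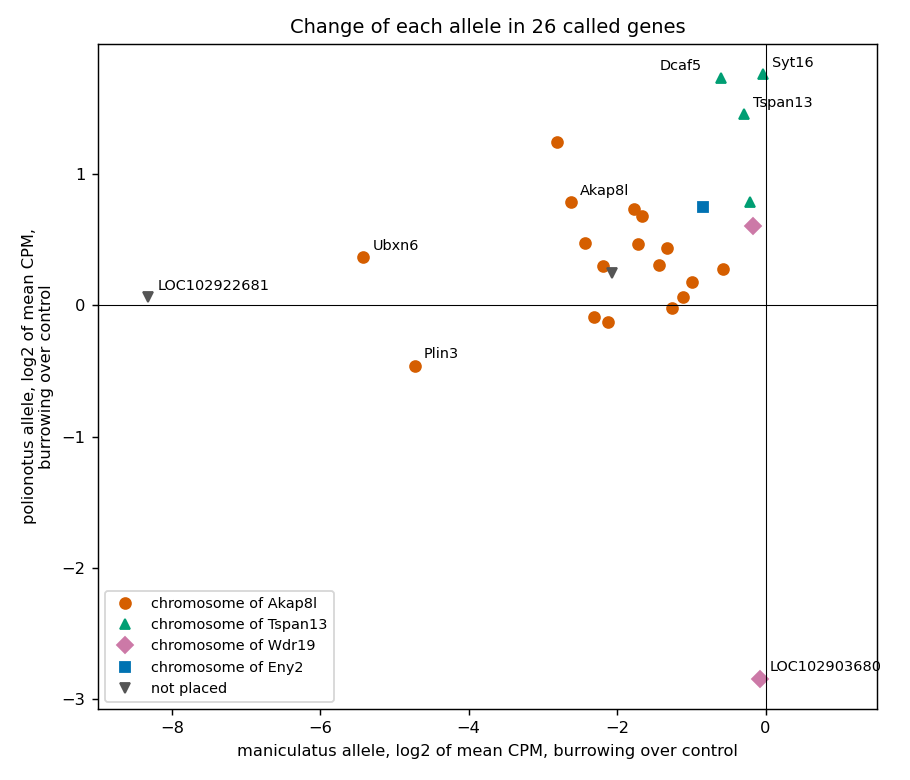
Log2 change of mean CPM, burrowing over control, of the maniculatus allele (x axis) and of the polionotus allele (y axis) for 26 called genes, with 1 point per gene. Colour and shape give the chromosome by its leading gene. Genes of the Akap8l chromosome spread to the left, with a median of -1.78 for the maniculatus allele, and genes of the Tspan13 chromosome sit high near the vertical axis, with a median of 1.60 for the polionotus allele.

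Counts summed over both alleles did not pass the test between trials in any gene. EdgeR's quasi-likelihood test called 0 of 11928 genes (0%), with 90 (0.755%) at an unadjusted p below 0.05, and DESeq2 called 2. Without burrowing animal 1 the number at an unadjusted p below 0.05 was 1844, and still 0 were called. Of the 27 genes with a changed ratio, 6 had an unadjusted p below 0.05, and the smallest edgeR adjusted p was 0.965. Of the 26 genes shifted towards the polionotus allele, 1 had a higher sum and 3 a lower sum in burrowing animals without overlap, against 1.09% and 1.46% of included genes. Syt16 had 62.2 ± 5.51 summed CPM in burrowing animals and 42.6 ± 4.63 in control animals (SD, n = 3 each). LOC102922681 had 53.6 ± 5.15 in burrowing animals and 95.5 ± 12.7 in control animals (SD, n = 3 each), and Fem1a had 53.8 ± 17 and Dpp9 67.5 ± 26.3 in burrowing animals, against 92.4 ± 10 for Fem1a and 116 ± 14.9 for Dpp9 in control animals. In a whole brain, fewer cells of a type and less RNA per cell cannot be told apart.

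Genes near the called genes also differed more often than other genes. Within 10 listed genes of a called gene lay 85 uncalled included genes, of which 33 were higher and 2 lower in burrowing animals without overlap, or 41.2%. Among the 9913 other placed uncalled genes 7.31% did not overlap. At an unadjusted p below 0.05 the shares were 36.5% near called genes and 1.63% elsewhere. The median log2 difference of the nearby genes was 0.23, with a range from -0.54 to 4.81. Several missed the threshold despite large differences, and these were named after their values were seen. Ndufa7, a subunit of respiratory complex I, averaged 94.8% ± 3.63 in burrowing animals and 43.3% ± 0.223 in control animals (SD, n = 3 each, edgeR adjusted p = 0.148). Cd320, the receptor for transcobalamin-bound vitamin B12, averaged 93.4% ± 2.99 in burrowing animals and 50.2% ± 6.1 in control animals (SD, n = 3 each, edgeR adjusted p = 0.0568).

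The nearby genes were not uniformly shifted. From Mpnd to Znf414, a stretch joined after the positions of the called genes were seen, the RefSeq table lists 180 genes, of which 53 were included. The stretch held 16 called genes. Of its 53 included genes, 28 were higher without overlap and 0 were lower, 28 differed by more than 1 on the log2 scale, and 22 differed by less than 0.5. Genes with large and with small differences lay side by side along it. LOC102904100 had no included gene within 10 listed genes. Of the 283 included genes on the Akap8l chromosome 19.4% did not overlap between trials, compared with 15.5% of 316 on the Tspan13 chromosome, 12.4% of 339 on the Wdr19 chromosome and 10.5% of 363 on the Eny2 chromosome. On the chromosomes without a called gene the value was 6.89% of 8722 genes. The highest single value among these chromosomes was 15.3% of 196 genes, about that of the Tspan13 chromosome. Called genes, whose trials never overlapped, are counted in the percentages of their own chromosomes. Whether the animals of the 2 trials inherited different parental haplotypes in these places is not given in the labels, and such haplotypes and the trial cannot be told apart with 3 animals in each.

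**Figure D4:**
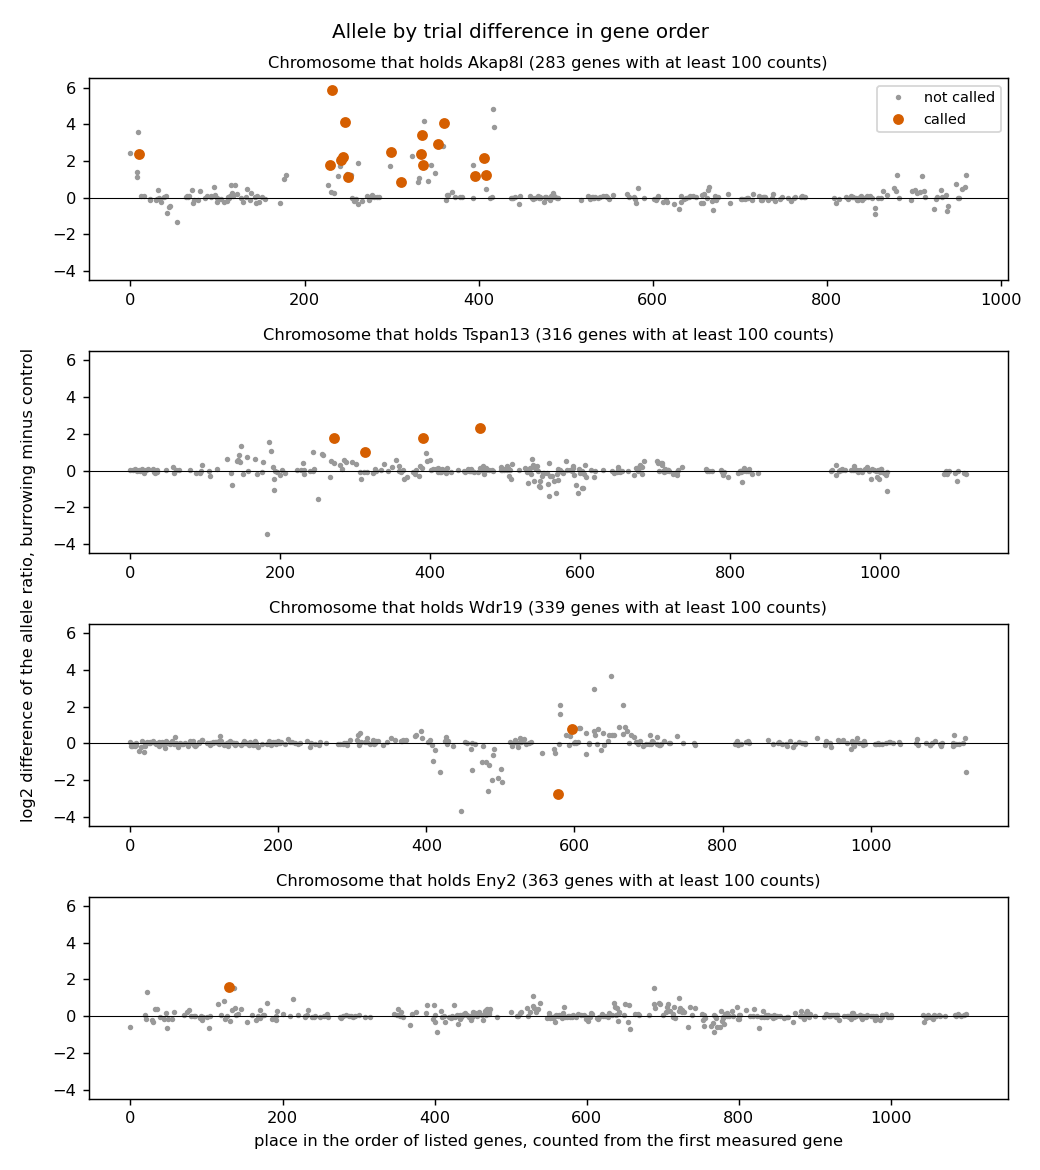
Log2 difference of the allele ratio, burrowing minus control (y axis), for included genes in the order of the RefSeq gene table (x axis), on the 4 chromosomes that hold a called gene. Orange points are called genes and grey points are not; on the Akap8l chromosome 16 of the 17 called genes shown fall between Mpnd and Znf414, among genes near 0.

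The parental brains were used to ask whether the species responded differently to the trials. The difference between species in the response to the trial, tested with limma on log2(TPM + 1), was called in 0 of 14366 genes (0%), with 415 (2.89%) at an unadjusted p below 0.05. Of the 27 genes, 21 were in that test, and their log2 values ran from -0.35 to 0.10, with 6 of the same sign as in the hybrids. Wiz alone had an unadjusted p below 0.05. Akap8l averaged 73.4 ± 4.23 TPM in *P. polionotus* after burrowing and 78.7 ± 9.26 TPM after control, and 75.9 ± 4.26 TPM in *P. maniculatus* after burrowing and 75.7 ± 7.77 TPM after control (SD, n = 3 each). Tspan13 averaged 153 ± 4.02 and 140 ± 18 TPM in *P. polionotus* after burrowing and control, and 155 ± 4.44 and 151 ± 4.4 TPM in *P. maniculatus* after burrowing and control (SD, n = 3 each). All 4 groups overlapped in range for both genes, whereas the F1 allele ratios of the trials lay far apart.

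The species difference itself was set beside the 2 F1 ratios. It was called in 7529 of 14366 genes (52.4%), and among the 21 genes it was called higher in *P. polionotus* in 6 and lower in 1. The species difference lay nearer the control ratio than the burrowing ratio in 15 of the 21. On the Akap8l chromosome this held for 13 of 14 genes, and on the Tspan13 chromosome for 0 of 4. Species differences of these genes ran from -0.17 to 0.79 on the Akap8l chromosome and from -0.06 to 0.19 on the Tspan13 chromosome. The nearer ratio was therefore mostly that of the trial near equal counts of the alleles. These counts restate that arrangement and are not separate support for it. Plin3 had a log2 species difference of 0.79 (SE 0.11), beside mean log2 allele ratios of 4.96 in burrowing animals and 0.92 in control animals. Dcaf5 had a species difference of 0.00, beside allele ratios of -0.08 in burrowing animals and -2.41 in control animals. Wdr19 had -0.29, beside -0.35 in burrowing animals and -1.12 in control animals. TPM of the species and allele counts were normalised separately, so these values are set side by side and were not tested against each other.

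**Figure D5:**
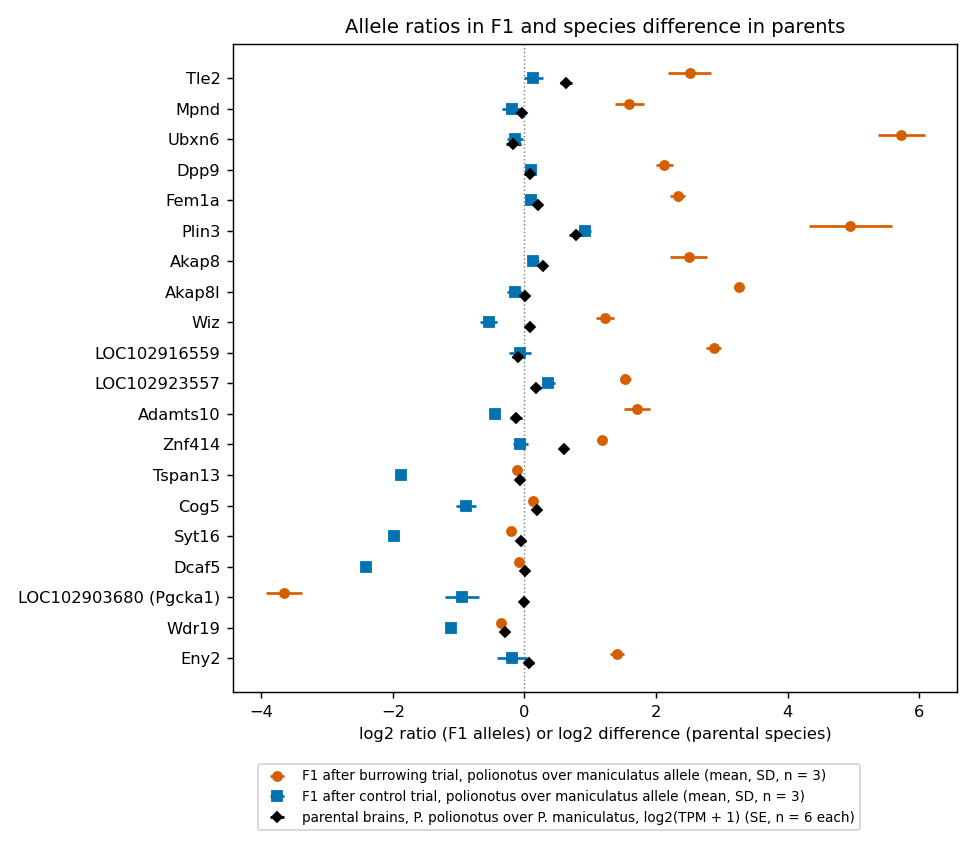
Mean log2 polionotus to maniculatus allele ratio of F1 animals after burrowing (orange circles) and control (blue squares; bars are SD, n = 3), with the log2(TPM + 1) difference between the parental species (black diamonds; bars are SE) for 20 called genes (rows). Diamonds lie nearer the squares for Akap8l and Plin3, and nearer the circles for Tspan13, Cog5, Syt16 and Dcaf5.

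Among uncalled genes whose trials did not overlap, the 5 with the smallest p towards the maniculatus allele were Tmem194b, Rsph4a, Ikbke, Pla2g12a and Slc7a1, at log2 differences of -2.13, -1.01, -0.83, -0.80 and -0.31 and edgeR adjusted p of 0.892 or more. Rsph4a, a radial spoke protein of motile cilia, had shares of 70.7%, 61.6% and 60.4% in burrowing animals, against 78.3%, 79.5% and 77.8% in control animals. Slc7a1, a transporter of cationic amino acids, had shares of 51.4%, 50.8% and 51.3% in burrowing animals, against 56.9%, 56.7% and 55.9% in control animals. None of the 5 passed the test.

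Genes that neuronal activity and stress hormones induce had 0 called members, beside 0.249% of all included genes, so the count does not set them apart. Among 32 immediate early genes the median log2 difference was -0.02, with 0 at an unadjusted p below 0.05 beside 2.16% of all included genes, and among 14 glucocorticoid-induced genes it was -0.05, compared with 0.01 over all included genes. Fos had polionotus shares of 62.3%, 49.6% and 64.6% in burrowing animals, against 67.6%, 60.4% and 64.4% in control animals. Arc, whose protein acts at active synapses, had 37.8%, 32.5% and 35.7% in burrowing animals, against 46.9%, 48.5% and 35.8% in control animals, so control animal 3 sat with the burrowing animals. Npas4 split both trials: burrowing animals had 48.9%, 87.7% and 84.2%, and control animals had 39.9%, 88.3% and 85.9%. Nr4a1 lay between 86.3% and 93.2% in all 6 animals. Sgk1, a kinase induced by glucocorticoids, averaged 42.6% ± 0.852 in burrowing animals and 42.7% ± 0.826 in control animals (SD, n = 3 each).

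Neuropeptide, dopamine and striatal genes also had 0 called, again beside 0.249% of all included genes. The median log2 difference was 0.02 over 16 neuropeptide genes, 0.02 over 8 genes of dopamine synthesis and transport and 0.01 over 25 genes of striatal medium spiny neurons. The dopamine receptor Drd1 averaged 51.0% ± 1.01 in burrowing animals and 50.9% ± 0.813 in control animals (SD, n = 3 each). Slc6a3, the dopamine transporter, had 52.2%, 56.2% and 85.3% in burrowing animals, against 44.1%, 49.8% and 50.2% in control animals, so burrowing animal 3 alone was far from the rest. Avp, encoding vasopressin, had 51.1%, 50.6% and 49.3% in burrowing animals, against 43.8%, 23.3% and 50.9% in control animals, and here control animal 2 was the low one, with 27 of 116 reads from the polionotus allele.

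A further 15 lists had 0 called genes, which at 0.249% called over all included genes says nothing particular about them. They covered known imprinted genes (4 included), circadian clock (21), chaperones (22), glutamate receptors (27), GABA signalling (21), potassium channels (39), the respiratory chain (23), myelin (20), oligodendrocyte precursors (11), astrocytes (18), microglia (14), vessels (20), choroid plexus and ependyma (11), hindbrain patterning (2) and prostaglandin synthesis (9). The gene with the smallest p of a list was named where that p was below 0.05 unadjusted. Gabra4, a GABA-A receptor subunit, had shares of 97.8%, 83.4% and 98.7% in burrowing animals, against 35.3%, 77.3% and 75.7% in control animals. Tspan2, a tetraspanin of myelin, had 18.1%, 18.0% and 36.0% in burrowing animals, against 40.8%, 43.9% and 39.9% in control animals. Kdr, the endothelial VEGF receptor, averaged 60.4% ± 2.55 in burrowing animals and 52.7% ± 0.697 in control animals, and Slc13a4 averaged 82.2% ± 1.2 in burrowing animals and 84.5% ± 0.365 in control animals (SD, n = 3 each). All 4 had an edgeR adjusted p of 1.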

How the data were processed

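Polyadenylated RNA of whole brain was sequenced with a stranded kit, per the labels' protocols, and a library was taken as 1 animal. The authors deposited whole-number counts per gene and allele for the 6 hybrids, with no value under 2, and TPM for the 12 parental libraries. Reads were aligned with STAR 2.4.2a, per the submitters' processing notes; the build, the annotation, how reads were given to alleles and how TPM were made were not given in the sources used here. A read that cannot be given to an allele is in neither column, and an allele unlike the aligned sequence may lose reads. The labels do not say how control trials were run. P-values weigh a difference against the spread between these animals, which edgeR and limma estimate partly across genes.

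Allele counts were fitted with edgeR 4.0.16 in R 4.3.3, with animal, allele and allele by trial terms; both columns of an animal took the sum of its alleles as library size, and genes needed a mean of 20 summed counts, which removed none. Summed counts were fitted with TMM scaling and filterByExpr. TPM were tested with limma 3.58.1 on log2(TPM + 1), a scale that understates changes of low genes, after genes averaging under 1 TPM were dropped. Tests were two-sided, with Benjamini-Hochberg adjustment over all genes fitted. DESeq2 1.42.0, limma on the ratio per animal with a pseudocount of 0.5 or 5, other scalings and filters, a replicate block, a term for the form of the animal ID and leaving out each animal were the alternatives. Only the main fits of allele counts, summed counts and TPM were tested on simulated data, and the alternatives were not. How the fits behave for genes whose allele ratio varies widely between animals was not tested. No 2 libraries held the same values.

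Named genes were the 12 called genes with the largest difference in each direction, filled up to 6 per direction with the uncalled genes of smallest p, a fixed set of activity, peptide and dopamine genes, and the gene of smallest p of each list if below 0.05; the other called genes lie outside that rule. The included genes and the 22 lists were chosen with earlier results of these data known. Values of 1 called gene, and the list that holds it, are not reported here. The list of blood and pituitary genes had no included gene. Names of 19 rows had been turned into dates; they stayed in the tests and have no name here. The row of the TPM table that names no gene, 0.789% to 2.48% of a library, was left out. Chromosomes and gene order come from the RefSeq table of assembly GCF_049852395.1 HU_Pman_BW_mat_3.1, which matched 10996 names (92.2%); no coordinates are given, since the build of the files is unknown.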

Additional observations from a re-analysis of the deposited data

Results flagged for a closer look

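The 26 genes below are given because a test of the difference itself, the allele by trial term of edgeR, set the allele ratio of burrowing animals apart from that of control animals. Values are log2 differences of the polionotus to maniculatus ratio, burrowing minus control. On the chromosome of Akap8l the nuclear proteins Akap8l, Akap8, Wiz, Tle2 and Znf414 had 3.41, 2.36, 1.77, 2.403 and 1.25. Ubxn6, Fem1a and Dpp9, which act in protein turnover, had 5.86, 2.22 and 2.03. The lipid droplet protein Plin3 had 4.15, the metalloprotease Adamts10 had 2.16, and the MPN-domain protein Mpnd had 1.78. LOC102907233 (Ptprs) had 1.15 and LOC102909570 (Adgre1) had 2.48. The unnamed genes LOC102917894, LOC102916559, LOC102923557 and LOC102904100 had 4.06, 2.94, 1.17 and 0.84.

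On the chromosome of Tspan13 the values were 1.75 for Tspan13, 1.79 for Syt16, 2.33 for Dcaf5 and 1.01 for Cog5. Wdr19 had 0.77 and LOC102903680 (Pgcka1), on the same chromosome, had -2.74. Eny2 had 1.59. The unplaced genes LOC102922681 and Ankrd24 had 8.31 and 2.33.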

How the results depend on the processing

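All 27 called genes kept their direction in every alternative run, which the lack of overlap between their trials largely fixed in advance. DESeq2 called 59 genes, 57 towards the polionotus and 2 towards the maniculatus allele, and still called all 27; for counts summed over alleles it called 2. With limma on the ratio, a pseudocount of 5, TMM, separate allele totals, no filter or a filter at 100, 23 to 28 genes were called, and with a term for the ID form 19, of which 16 were among the 27. Leaving out 1 animal gave 10 to 73 calls, 10 to 39 towards the polionotus and 0 to 43 towards the maniculatus allele, with 10 to 20 of the 27 among them; 4 genes (Cog5, LOC102904100, LOC102909570 and LOC102923557) were called in none of these fits. Summed counts gave 0 calls with any animal left out. The parental species by trial term called 1 gene with a pseudocount of 5, 1 without a filter and 0 to 2 with 1 library left out (2 without maniculatus control 1, 1 without maniculatus control 3), and 0 in the other fits. The cause of these shifts was not tested.

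The labels do not say that replicate numbers pair the animals. Deviations from the trial mean correlated at 0.39, 0.0875 and 0.36 for the same number, and each animal correlated best with its own number, a hint from the data only. With a replicate block, which leaves fewer degrees of freedom, 2 genes were called, both towards the polionotus allele (among them Akap8l, edgeR adjusted p = 0.0485), and 0 towards the maniculatus allele; summed counts and the parental term stayed at 0.

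With 3 animals per trial, the calls rest on few values each. Control animals 1 and 2 had the fewest reads, 11415175 and 12595542.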

Other observations

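Genes of prostaglandin synthesis had the largest list median, a log2 difference of 0.75 over 9 included genes, beside 0.01 over all included genes. Of the 9, 0 were called, 0 had an unadjusted p below 0.05 and 1 did not overlap between trials, beside 0.249%, 2.16% and 7.94% of all included genes, so these counts do not set the list apart. Hpgd, which inactivates prostaglandins, averaged 80.4% ± 16.5 polionotus share in burrowing animals and 58.1% ± 2.13 in control animals (SD, n = 3 each). Ptgs1, the constitutive cyclooxygenase, averaged 59.0% ± 9.9 in burrowing animals and 46.2% ± 3.89 in control animals, and Ptgs2, the inducible one, averaged 46.9% ± 4.01 in burrowing animals and 48.4% ± 3.02 in control animals (SD, n = 3 each). For Hpgd and Ptgs1 the spread between burrowing animals was larger than that between control animals.

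Junb, an early response transcription factor, had shares of 41.2%, 38.3% and 58.1% in burrowing animals, against 50.6%, 55.04% and 51.2% in control animals. Egr1, another one, had 60.2%, 65.5% and 61.4% in burrowing animals, against 55.5%, 61.2% and 61.0% in control animals. Penk, the enkephalin precursor, had 61.0%, 51.7% and 49.7% in burrowing animals, against 54.5%, 49.0% and 56.4% in control animals. In all 3 genes the trials overlapped.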
